A study of Mus musculus with 16 samples.

Results

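Heat shock chaperones were followed in the lungs of newborn mice after a single exposure to ozone. The genes were Hspa1a, Hspa1b, Hsph1, Dnajb1, Hspb1, Hsp90aa1, Hspa8, Hspd1 and Hspe1, and every non-control probe whose gene name or older synonym is one of these 9 was taken. They make up 9 of the 21631 genes tested and 14 of the 41174 probes that are not controls. Signal well above background was required on 4 or more arrays, which all 14 probes met, and 13 of them met it on all 16. The set was put together under the name cytosolic chaperones. Hspd1 and Hspe1 go against that name, since they encode the chaperonin of the mitochondrial matrix and its lid.

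Lungs of 16 BALB/c pups, an inbred laboratory strain, were each hybridised to a single Agilent array in 4 groups of 4. Pups aged 3 days breathed ozone at 1000 ppb for 3 h and were killed 6 h or 24 h afterwards, and filtered air littermates of the same age were handled in the same way. The labels state that the time points were separate runs, each with its own air group, that pups were with a foster dam while exposed, and that the arrayed lungs were drawn at random from a larger group. The tissue is the whole lung, so fewer cells of a type and less RNA per cell cannot be told apart.

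Heat shock proteins hold unfolded or newly made proteins in a state from which they can fold, and they keep damaged proteins from clumping. Hsp70 proteins do so in a cycle driven by ATP, in which a J-domain partner such as Dnajb1 loads the substrate and an exchange factor such as Hsph1 resets the chaperone. Heat, oxidants and other agents that damage proteins release the transcription factor HSF1, which binds inverted repeats of the letters GAA upstream of many of these genes. Ozone is an oxidant gas that reacts with the fluid lining the airways.

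The 75th percentile of the signal lay between 574 and 946 on the 16 arrays, and the share of spots flagged as well above background was 65.0% to 83.9%. Ozone replicate 3 of 6 h had the highest share, while its 7 fellow arrays of 6 h stayed at or under 72.5%. In the authors' deposited table this array also stood apart, with a slope of 1.21 against its log2 scanner signal, where the slopes of the others were 0.96 to 1.04. Calls of genes and probes at 6 h are given with and without it. Of the 9 lung markers, which include Sftpc of alveolar type II cells and Scgb1a1 of club cells, all were above background on every array. Sex was inferred from signal: a lung was taken as male where the mean of Ddx3y, Eif2s3y and Kdm5d lay above Xist. By this rule there were 2 males among the ozone lungs of 6 h and 1 among the air lungs, and at 24 h there were 3 and 1.

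At 6 h after exposure the stress-inducible Hsp70 genes Hspa1a and Hspa1b rose in the ozone lungs, by 0.67 ± 0.12 and 0.56 ± 0.14 on the log2 scale (SE, n = 4 per group). The mitochondrial chaperonin pair moved the other way: Hspd1 fell by 0.33 ± 0.08 and Hspe1 fell by 0.48 ± 0.12. The remaining 5 genes did not pass the test at an adjusted p of 0.05. So 2 of 9 members rose, against 1.36% of all genes tested, and 2 of 9 fell, against 3.12% of all genes. At an unadjusted p under 0.05 there were 7 of 9, where 21% of all genes had such a p. Besides the called genes these were Hsph1, Hsp90aa1 and Hspa8, each lower in ozone lungs. The Hspa1b probe is also listed with the Hspa1a transcript, so the 2 rises may not be separate. The median of the 9 differences was -0.16, and that of all genes was 0.07. Without ozone replicate 3 only Hspa1a stayed called. With all arrays kept, the calls depended on the scaling. With the median of each array in place of the 75th percentile they were Hspd1 and Hspe1, and Hspa1a was lost. With quantile normalization they were Hspa1a and Hsp90aa1. Over all genes 295 were called higher and 675 lower. The split was 37 higher and 871 lower with the median as the scale, and 387 higher and 660 lower with quantile normalization. With normexp, another background correction, it was 152 higher and 801 lower. At 24 h 0 of the 9 passed in limma (1 at an unadjusted p under 0.05), where 2.01% of all genes passed.

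Hspa1a and Hspa1b are near-identical neighbours on chromosome 17 that encode nearly the same inducible Hsp70 protein. Their upstream regions are shown because the likeness of the copies bears on what the probes measure. RefSeq's upstream sequences on build GRCm38.p6 were the same at 149 of 150 bases before the start site, and at 247 of 250. The 150 bases before each start are given 5′ to 3′ on the minus strand, from chr17:34972157-34972306 and chr17:34959239-34959388, with a pair of inverted units (GAANNTTC) in capitals.
Hspa1a: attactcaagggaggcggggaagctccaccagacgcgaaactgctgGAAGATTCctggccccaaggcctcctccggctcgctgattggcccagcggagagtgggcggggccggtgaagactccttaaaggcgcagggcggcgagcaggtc
Hspa1b: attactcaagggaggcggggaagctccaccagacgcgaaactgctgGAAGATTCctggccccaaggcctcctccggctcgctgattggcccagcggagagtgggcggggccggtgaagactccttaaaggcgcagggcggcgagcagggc
The match begins 104 bases before the start in both copies. A pair was searched as GAANNTTC or TTCNNGAA, each of which reads the same on both strands, and it occurs in 12.8% of the 32851 upstream windows of the table.

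The probes separate the copies only in part. Both Hspa1a probes are listed in the files with the Hspa1a transcript alone, whereas both Hspa1b probes are listed with the transcripts of both genes. The Hspa1a probes lie at positions 2246 and 2276 of the transcript, on the minus strand of chromosome 17 of build mm9. They share the 30 bases of chr17:35106796-35106825, so they are not independent measurements.
Shared by the Hspa1a probes: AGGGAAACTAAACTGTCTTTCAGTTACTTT
The Hspa1b probes are 60 bases each, at chr17:35095608-35095667 and chr17:35094200-35094259 of mm9, also on the minus strand. They are shown because a signal on them may come from either gene.
Hspa1b, position 516 of the transcript: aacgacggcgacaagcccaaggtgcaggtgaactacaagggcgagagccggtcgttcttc
Hspa1b, position 1924 of the transcript: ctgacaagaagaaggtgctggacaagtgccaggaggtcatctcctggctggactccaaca
Rises of Hspa1b are therefore given as read by a probe shared with Hspa1a, and how much each copy contributed was not tested.

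The readings below are log2 of the signal over the 75th percentile of the array, so that 0 is a signal equal to that percentile. They compare arrays for 1 probe and set no probe's level against another's. The Hspa1a probe at position 2276 read -0.35, 0.05, 0.09 and -0.12 in the ozone lungs of 6 h (replicates 1 to 4), against -0.42, -0.62, -1.08 and -0.88 in the air lungs. All ozone values lay above all air values, as they did for 4.61% of all genes. The ozone mean was 0.67 higher, a 1.59-fold difference with a 95% interval of 0.42 to 0.93 on the log2 scale (limma adjusted p = 0.00711). The two-sided exact permutation p was 0.0286, the smallest that 4 against 4 allows. Ozone replicate 1 and air replicate 1 are the closest values of the groups, 0.07 apart on the log2 scale.

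The rise of Hspa1a was uneven between slides. It was 0.37 on the slide with replicates 1 and 2 and 0.97 on the slide with replicates 3 and 4, each holding 2 ozone and 2 air lungs. Without ozone replicate 3 it was 0.61 (adjusted p = 0.0253), and it stayed called in each of the 16 fits that left out 1 array. The other Hspa1a probe gave 0.57 ± 0.15 (adjusted p = 0.0375 over probes), with ozone values from -0.66 to -0.29 and air values from -1.46 to -0.53 that overlapped. The call was lost with the median of each array in place of the 75th percentile (0.51, adjusted p = 0.0504) and with only the arrays of 6 h in the fit (0.67, adjusted p = 0.0753).

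The Hspa1b probe at position 1924 read -2.69, -2.30, -2.25 and -2.58 in the ozone lungs of 6 h, against -2.62, -2.90, -3.28 and -3.26 in the air lungs. Air replicate 1 lay within the ozone range, so the groups overlapped. The difference of 0.56 ± 0.14 is a 1.47-fold rise (limma adjusted p = 0.0357, exact permutation p = 0.0571). This call was less steady than that of Hspa1a: it was kept in 4 of 14 alternatives and in 12 of 16 fits without 1 array. It was lost without ozone replicate 3 (0.49, adjusted p = 0.0973) or ozone replicate 2 (0.51, adjusted p = 0.0828). It was also lost without air replicate 3 (0.47, adjusted p = 0.0864) or air replicate 4 (0.48, adjusted p = 0.143). The Hspa1b probe at position 516 was well above background in 1 of 4 ozone lungs of 6 h, replicate 3, and in 0 of 4 air lungs, so no fold is given for it.

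**Figure D1:**
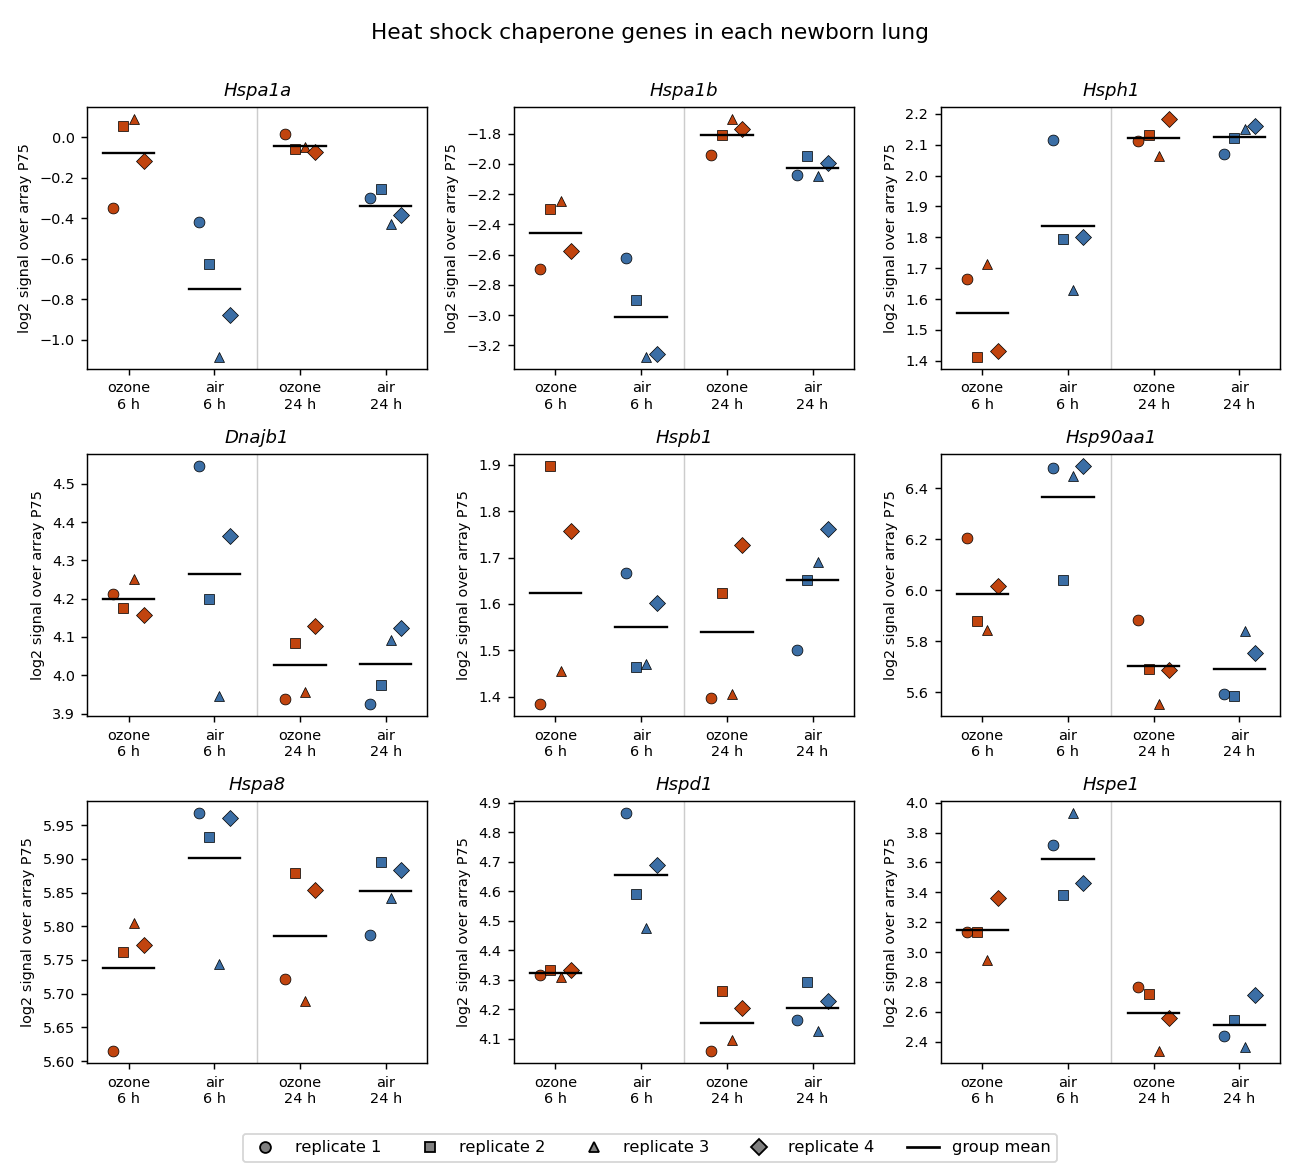
Signal of each of the 9 genes in each lung, on the log2 scale over the 75th percentile of the array (vertical axis, a separate range per gene), for ozone and air at 6 h and at 24 h. Points are single lungs with a symbol per replicate number, and black lines are group means. The 4 ozone lungs of Hspa1a lie above the 4 air lungs at both times, and those of Hspd1 and Hspe1 lie below the air lungs at 6 h.

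None of the cytosolic partners of Hsp70 passed the test. Hsph1, the Hsp110 exchange factor, read 1.66, 1.41, 1.71 and 1.43 in ozone lungs of 6 h, against 2.12, 1.79, 1.63 and 1.80 in air lungs. The air replicate 3 value lay among the ozone values. The difference was -0.28 ± 0.09 (limma adjusted p = 0.0891, exact permutation p = 0.0857), and it became -0.35 (adjusted p = 0.0454) without air replicate 3. Dnajb1, the J-domain protein that delivers substrates to Hsp70, had ozone values of 4.16 to 4.25 within the air range of 3.95 to 4.55. Its difference was -0.07 ± 0.10, with an interval of -0.27 to 0.14, and -0.03 ± 0.09 on its other probe.

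Hspa8, the constitutive Hsp70 of the cytosol, read 5.61, 5.76, 5.80 and 5.77 in ozone lungs of 6 h, against 5.97, 5.93, 5.74 and 5.96 in air lungs. Air replicate 3 again lay inside the ozone range. The difference was -0.16 ± 0.08 (limma adjusted p = 0.228) and that of its other probe -0.27 ± 0.13 (adjusted p = 0.274 over probes). Hspb1, a small heat shock protein that holds unfolded proteins without ATP, had ozone values of 1.38 to 1.90 around air values of 1.46 to 1.67. Its difference of 0.07 ± 0.11 had an interval of -0.16 to 0.30. The single Hspb1 probe is 60 bases long and spans 188 bases of the genome, chr5:136364927-136365114 of mm9, so it crosses an exon junction.

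Hsp90aa1, the inducible cytosolic Hsp90, which also restrains HSF1, read 6.20, 5.88, 5.85 and 6.02 in ozone lungs of 6 h, against 6.48, 6.04, 6.45 and 6.49 in air lungs. Only air replicate 2 lay within the ozone range. The difference was -0.38 ± 0.11 (limma adjusted p = 0.0658, exact permutation p = 0.0571), with an interval of -0.61 to -0.14. Without air replicate 2 it was -0.48 (adjusted p = 0.00964), and without ozone replicate 3 it was -0.33 (adjusted p = 0.164). It was called under 4 of 13 alternatives, quantile normalization and the authors' deposited values among them. Its call thus depends on the arrays and on the scaling.

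Hspd1 encodes the barrel of the mitochondrial chaperonin, in which imported proteins fold, and Hspe1 its lid. The genes lie head to head on chromosome 1. The table lists 2 starts for Hspd1, and 215 bases lie between 1 of them and the start of Hspe1. RefSeq's upstream sequence of GRCm38.p6 holds a run of inverted units between these starts, and it is shown because it lies upstream of both genes that fell. The other Hspd1 start lies beyond the Hspe1 start, and its window holds no pair or run of units. It is given on the plus strand, the strand of Hspe1, at chr1:55088053-55088082, with the 18 bases of the run in capitals.
Hspe1 and Hspd1: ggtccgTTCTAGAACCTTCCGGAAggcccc
Runs of 3 units, searched as GAANNTTCNNGAA and TTCNNGAANNTTC, which are each other's reverse complement and each hold both pairs, occurred in 0.466% of the 32851 windows. Among the members only Hspd1 and Hspe1 had such a run within the 250 bases before a start, of the 7 whose window the table holds. A pair of units was found in 6 of these 7, all but Dnajb1. A match is a matter of letters and does not show binding. Only exact units were searched, so a missing match does not show that an element is absent.

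Hspd1 read 4.32, 4.33, 4.31 and 4.33 in ozone lungs of 6 h, against 4.86, 4.59, 4.47 and 4.69 in air lungs. The ozone values were nearly alike (SD 0.012) and lay below every air value (SD 0.17), as ozone values did for 4.87% of all genes. The fall of 0.33 ± 0.08 is a ratio of 0.794 (limma adjusted p = 0.0257, exact permutation p = 0.0286, the smallest possible). Its other probe, at position 1575 of the transcript, gave -0.34 ± 0.09 (adjusted p = 0.0442 over probes). The fall was 0.40 on the slide of replicates 1 and 2 and 0.26 on that of replicates 3 and 4.

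Hspe1 read 3.13, 3.14, 2.95 and 3.36 in ozone lungs of 6 h, against 3.72, 3.38, 3.93 and 3.46 in air lungs. All ozone values were below all air values, with ozone replicate 4 and air replicate 2 almost touching. The fall of 0.48 ± 0.12 is a ratio of 0.718 (limma adjusted p = 0.0382, exact permutation p = 0.0286), and it was 0.41 and 0.54 within the slides. Without ozone replicate 3, Hspd1 was at -0.33 (adjusted p = 0.0638) and Hspe1 at -0.41 (adjusted p = 0.119). The call of Hspd1 was lost in 5 of the 16 fits without 1 array and that of Hspe1 in 7, and both were lost with quantile normalization. Over the alternatives that kept all arrays or only those of 6 h, Hspd1 was called in 10 of 14 and Hspe1 in 5 of 13.

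Of the 14 probes, 6 were called at 6 h when adjusted over all probes, where 3.68% of all probes were. They are both probes of Hspa1a, 1 of Hspa1b, both of Hspd1 and that of Hspe1. These 6 are not independent, since the Hspa1a probes overlap and the Hspa1b probe is also listed with the Hspa1a transcript. Only 1 of the 14 was called without ozone replicate 3, the Hspa1a probe at position 2276 (0.61, limma adjusted p = 0.0258 over probes), where 1.71% of all probes were. In Hspa1a, Dnajb1, Hspa8 and Hspd1, each with 2 probes detected in all 8 lungs, both probes gave differences of the same sign.

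**Figure D2:**
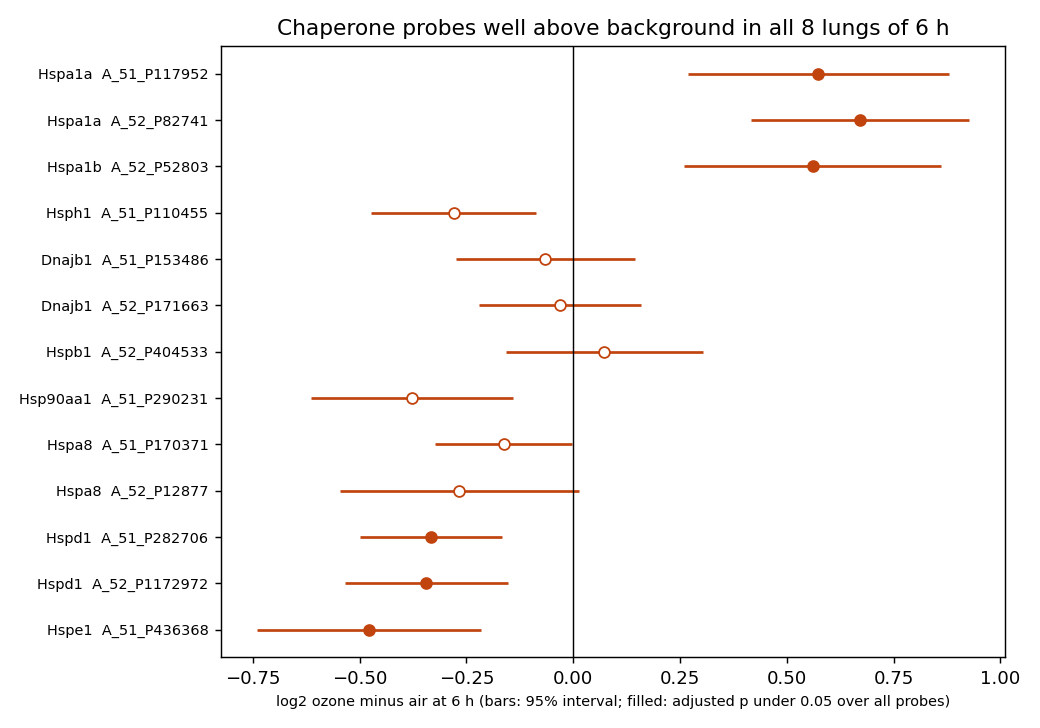
Difference in log2 signal, ozone minus air, of each probe at 6 h (horizontal axis) with its 95% interval, for the 13 probes detected in each of the 8 lungs of 6 h. Filled points have an adjusted p under 0.05 over all probes: the Hspa1a and Hspa1b probes lie right of 0 and the Hspd1 and Hspe1 probes left of it.

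At 24 h the differences were small. The 1 member with an unadjusted p under 0.05 was Hspa1a, where 13.3% of all genes had one. Hspa1a read 0.02, -0.06, -0.05 and -0.08 in ozone lungs of 24 h, against -0.30, -0.25, -0.43 and -0.39 in air lungs. The groups lay apart, as they did with ozone above air for 6.8% of all genes. The difference was 0.30 ± 0.12 (limma adjusted p = 0.267, exact permutation p = 0.0286). It was 0.25 and 0.35 within the slides, and it was called only with the arrays of 24 h alone in the fit (adjusted p = 0.0395).

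Hspa1b at 24 h read -1.95, -1.81, -1.70 and -1.77 in ozone lungs, against -2.07, -1.95, -2.08 and -2.00 in air lungs. Here too all ozone values were above all air values, with ozone replicate 1 just above air replicate 2. The difference was 0.22 ± 0.14 (limma adjusted p = 0.592). The probe at position 516, above background in all 8 lungs of 24 h, gave -0.15 ± 0.52, so the Hspa1b probes differed in sign. Its level was low, with means of -5.08 in ozone and -4.93 in air lungs of 24 h. The SE pools all groups: the SD was 1.53 in ozone lungs of 6 h, and 0.33 and 0.26 in ozone and air lungs of 24 h. For the other 7 genes the differences at 24 h lay between -0.11 for Hspb1 and 0.08 for Hspe1, with adjusted p of at least 0.779.

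**Figure D3:**
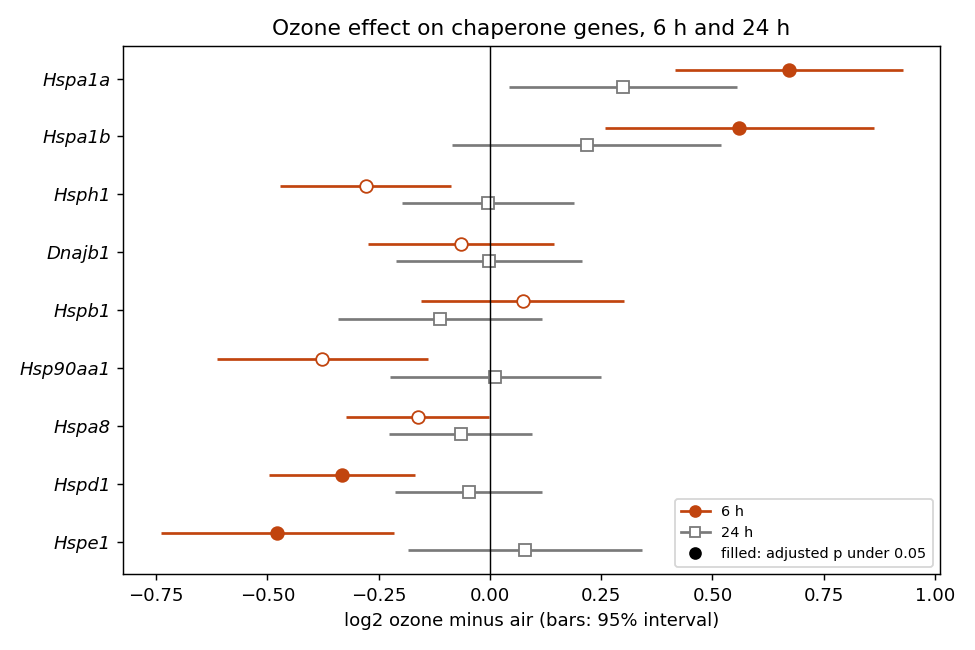
Difference in log2 signal, ozone minus air (horizontal axis), for each gene at 6 h (orange circles) and 24 h (grey squares), with 95% intervals. Filled symbols have an adjusted p under 0.05 over all genes: Hspa1a, Hspa1b, Hspd1 and Hspe1 at 6 h, and none at 24 h.

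The ozone effects at the 2 times were compared directly. No member differed in limma's test of the 24 h effect minus the 6 h effect, and 0.0647% of all genes did. At an unadjusted p under 0.05 there were 5 members, Hspa1a, Hsph1, Hsp90aa1, Hspd1 and Hspe1, against 12.5% of all genes. The largest difference among the members was that of Hspe1, 0.56 ± 0.18 (adjusted p = 0.203), which was called with normexp background correction (adjusted p = 0.0271). For Hspa1a it was -0.37 ± 0.17 (adjusted p = 0.385) and for Hspd1 0.28 ± 0.11 (adjusted p = 0.291). A smaller response at 24 h than at 6 h is thus not shown for any member by this test.

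Levels in the air groups also differed between the times, and time and run cannot be told apart. The air mean of the Hspe1 probe was lower by 1.11 in lungs of 24 h than in those of 6 h on the log2 scale, with ranges apart, and that of Hsp90aa1 was lower by 0.67, also with ranges apart. The air mean of Hspa1b was higher by 0.99 at 24 h than at 6 h, again with ranges apart, and that of Hspa1a was higher by 0.41 with ranges that overlapped. How many of all genes had air ranges apart between the times was not counted, so the ranges set no member apart. The part of these shifts in the smaller differences of the Hsp70 genes at 24 h was not tested. Probes of 1 gene did not give such shifts alike. The Hspd1 probe at position 2121 had an air mean lower by 0.45 at 24 h than at 6 h, with ranges apart. The probe at position 1575 had one higher by 0.46. For Hspa8 the shifts were -0.05 at position 1731 and 0.84 at position 730, and for Dnajb1 -0.24 at position 2116 and 0.40 at position 862. In these 3 genes the probe nearer the start of the transcript had the higher shift. The same order was seen in Hspa1a (0.57 at position 2246, 0.41 at position 2276), whose probes share 30 bases. The order was also seen in Hspa1b (1.65 at position 516, 0.99 at position 1924), whose probe at position 516 was not above background in the air lungs of 6 h. In all of these genes the probe nearer the start was also the dimmer one, so position and brightness of a probe cannot be told apart. These levels are therefore described and not tested.

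Other genes of the chaperone system were read from lists. Of 35 co-chaperones and other genes linked to HSF1, 0 rose and 3 fell at 6 h, with 26 of 35 values below 0 and a median of -0.09. Of all genes tested 1.36% were called higher and 3.12% lower. With quantile normalization and with the authors' deposited values 2 of the list rose and 2 fell. In the main fit 3 were higher and 7 lower at an unadjusted p under 0.05. That is 28.6% of the list, where 21% of all genes had such a p at 6 h. Cacybp, a partner of the ubiquitin ligase Siah1, averaged 3.57 ± 0.12 in ozone lungs and 4.07 ± 0.21 in air lungs (SD, n = 4 each). It fell by 0.49 ± 0.09 (limma adjusted p = 0.00905), and the call held in 12 of 13 alternatives and in all 16 fits without 1 array. Also called lower in the main fit was Hspa13, an Hsp70 relative of the microsomes, at -0.37 ± 0.09 (limma adjusted p = 0.0267). So was Hspa14, an Hsp70 bound to ribosomes, at -0.29 ± 0.08 (adjusted p = 0.0476). The call of Hspa14 held in 3 of 13 alternatives. Without ozone replicate 3 Cacybp was at -0.43 (adjusted p = 0.0327), and Hspa13 (adjusted p = 0.0651) and Hspa14 (adjusted p = 0.0713) were no longer called.

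TRiC, the chaperonin of the cytosol that folds actin and tubulin, and prefoldin, which hands it substrates, had all 14 subunits at values below 0 at 6 h, with a median of -0.26. The median of all genes was 0.07. At an unadjusted p under 0.05, 9 of the 14 were lower (64.3%), where 21% of all genes had such a p. Of the 14 subunits 3 were called lower, where 3.12% of all genes were. Cct8 fell by 0.37 ± 0.09 (limma adjusted p = 0.0318), Tcp1 by 0.34 ± 0.09 (adjusted p = 0.0375) and Cct6a by 0.47 ± 0.13 (adjusted p = 0.0470). The summed level of the 14 subunits, in multiples of the 75th percentile, was 137 to 149.8 in ozone lungs and 155.6 to 179.5 in air lungs, with no overlap. Subunits with strong signal weigh most in such a sum, and how often sums of other genes lie apart was not counted. Without ozone replicate 3, 13 of 14 values were below 0 and 0 passed (adjusted p of 0.0899, 0.119 and 0.137 for Cct8, Tcp1 and Cct6a). With the median of each array as the scale 14 were below 0 and 0 passed. At 24 h 0 of the 14 passed (2 at an unadjusted p under 0.05, or 14.3%), the median was -0.08, and the sums were 121.4 to 133.9 in ozone lungs and 123.6 to 135.6 in air lungs.

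Of 11 other mitochondrial chaperones and proteases, 1 fell at 6 h, where 3.12% of all genes were called lower. It was Hspa9, the Hsp70 of the mitochondrial matrix that works with Hspd1 and Hspe1, at -0.31 ± 0.08 (limma adjusted p = 0.0332). Its mean was 2.92 ± 0.10 in ozone lungs and 3.23 ± 0.12 in air lungs (SD, n = 4 each), and its ozone values lay below its air values, as for 4.87% of all genes. Without ozone replicate 3 it was at -0.28 (adjusted p = 0.0982). Dnajc19, a J-domain protein of the import motor, was at -0.43 ± 0.14 (adjusted p = 0.0790), and Grpel1, the exchange factor of Hspa9, at -0.24 ± 0.08 (adjusted p = 0.0987). The list's median was -0.09.

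No heat shock factor and no further small heat shock protein passed at either time in limma, and at an unadjusted p under 0.05 there was 1 of 10 at 6 h and 3 of 10 at 24 h (21% and 13.3% of all genes). Hsf1 itself was at 0.11 ± 0.10 at 6 h (limma adjusted p = 0.549), and of the 4 genes of that list 2 were above background on all 16 arrays. Among 6 small heat shock proteins Hspb7, known from heart and muscle, was at 0.74 ± 0.26 at 6 h (adjusted p = 0.116), and Cryab at -0.09 ± 0.08 (adjusted p = 0.545). The cold-inducible RNA-binding proteins, which go down with heat, were at 0.24 ± 0.11 (Cirbp, adjusted p = 0.200) and -0.26 ± 0.12 (Rbm3, adjusted p = 0.224). Of 13 immediate early genes, 1 fell at 6 h, where 3.12% of all genes were called lower. It was Dusp1, a phosphatase of MAP kinases, which fell by 0.80 ± 0.20 (adjusted p = 0.0334, and 0.0874 without ozone replicate 3). Of the 85 genes of these chaperone, heat shock factor, cold-inducible and immediate early lists, 0 were called at 24 h in limma, and 15 had an unadjusted p under 0.05 (17.6%, against 13.3% of all genes).

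**Figure D4:**
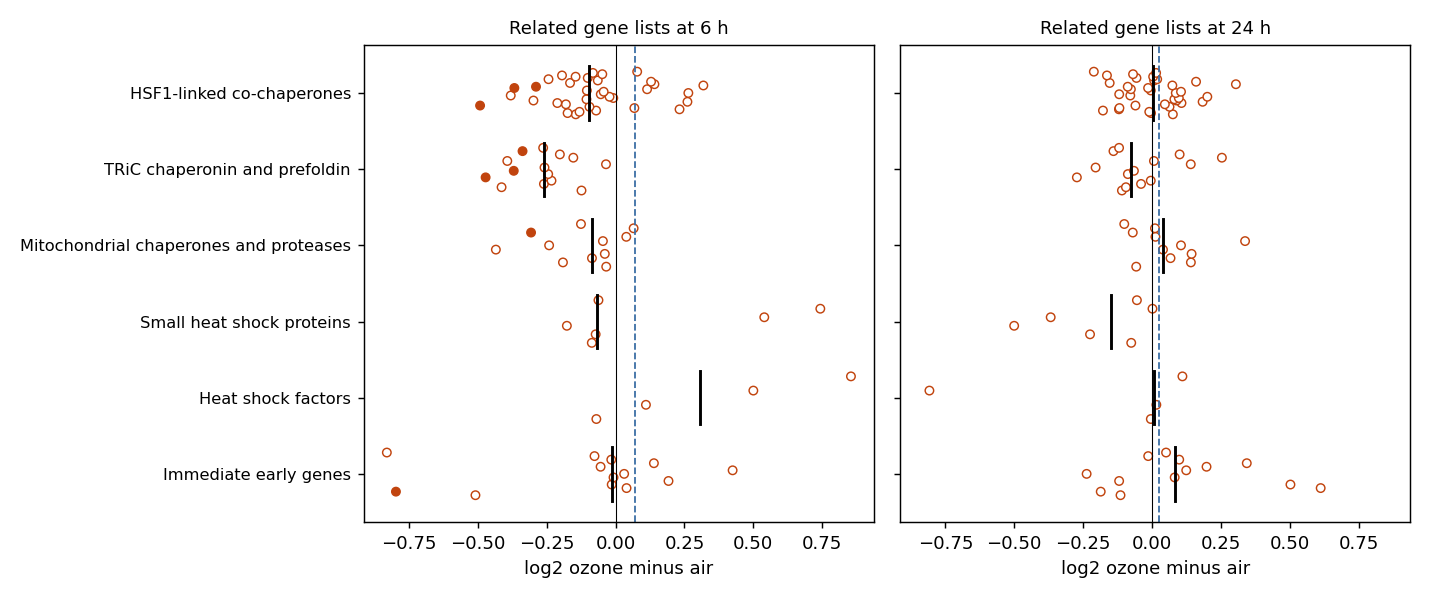
Difference in log2 signal, ozone minus air (horizontal axis), of each gene of 6 related lists at 6 h (left) and 24 h (right). Filled points have an adjusted p under 0.05, black bars are list medians and the dashed line is the median of all genes. At 6 h all 14 genes of TRiC and prefoldin lie left of 0, and at 24 h no point is filled.

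Markers of dividing cells moved in the same lungs. At 6 h 5 of these 8 fell, where 3.12% of all genes were called lower. The summed level of the 8 was 36.5 to 41.5 in ozone lungs and 54.0 to 64.3 in air lungs, in multiples of the 75th percentile. At 24 h all 8 fell, where 1.32% of all genes were called lower. The sums were 33.6 to 42.9 in ozone lungs and 58.2 to 62.6 in air lungs, and no member was called at that time. Pcna, the sliding clamp of DNA polymerases, was at -0.80 ± 0.09 at 6 h (limma adjusted p = 0.000449). It was at -0.77 (adjusted p = 0.00123) without ozone replicate 3, and 5 of the 8 again fell. The part of dividing cells in the falls of Hspd1, Hspe1 and the TRiC subunits was not tested. None of the 9 lung, 12 heart and muscle and 8 neutrophil markers was called at either time in limma. An unadjusted p under 0.05 was found for 4 of these 29 at 6 h (13.8%, against 21% of all genes) and for 3 at 24 h (10.3%, against 13.3%). Of 6 erythroid markers 1 was called at 24 h, where 1.32% of all genes were called lower. It was Klf1, which fell by 0.99 ± 0.23 (limma adjusted p = 0.0304). At 24 h 4 of the 6 values were below 0 and 2 above. At 6 h all 6 were above 0 and 0 were called.

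Likeness to Hspa1a was described over the 16 arrays, with the mean of each time point removed. The values share arrays and scaling, so the correlations carry no p. The closest of 21630 other genes was Hspa1b (r = 0.95), whose probe also matches Hspa1a. It was followed by Hectd3, a ubiquitin ligase (r = 0.91), Zfp865 (r = 0.90), Timp4, an inhibitor of metalloproteinases (r = 0.89), and Bckdha, a subunit of branched-chain keto acid dehydrogenase (r = 0.89). Of these Timp4 was also called at 6 h, at 0.58 ± 0.13 (limma adjusted p = 0.0204), and at 0.45 (adjusted p = 0.0465) without ozone replicate 3. The genes were picked with the ozone difference left in, so a like call at 6 h follows in part from the choice. With group means removed r was 0.89 for Hspa1b, 0.72 for Hectd3, 0.77 for Zfp865, 0.64 for Timp4 and 0.84 for Bckdha.

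The members themselves fell into no single pattern. Over the same 16 arrays Hspa1a had r = -0.70 with Hsp90aa1, -0.60 with Hspe1, -0.49 with Hspd1 and 0.11 with Dnajb1. With group means removed, so that only the spread among lungs of 1 group counts, r was 0.54 with Hspd1, 0.59 with Hspa8 and 0.47 with Hsph1, and it was -0.45 with Hsp90aa1. Hsph1 and Dnajb1 had r = 0.80 within groups, and Hspd1 and Dnajb1 also 0.80. Hspd1 and Hspe1, which share an upstream region, had r = 0.57 with time means removed and 0.05 within groups.

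Genes with a run of 3 units within 250 bases before a start were compared with the rest. Of 58 such genes tested, 0 rose and 5 fell at 6 h, which is 8.62% called, against 5.34% of 13367 other genes with a window. Hspd1 and Hspe1 share 1 run and were the reason for the search. Without them, a count added after the data were seen, 3 of 56 were called at 6 h (5.36%), a share near that of the other genes. The 5 were Hspd1, Hspe1, Ahcy, Timm9 and Tra2b, of which 1 stayed called without ozone replicate 3, Tra2b at -0.48 (limma adjusted p = 0.0274). At 24 h 0 rose and 2 fell, Ahcy and Dnmt1 (3.45% called, against 2.44%). Neither share was tested, and 29 of the 58 values at 6 h were above 0.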

How the data were processed

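Whole-lung RNA of 16 mice was measured on 1-colour arrays. The deposited files are scanner output of Agilent Feature Extraction 10.7.1.1, with linear spot intensity and probe positions on mouse build mm9, per the file headers. Background was subtracted from the processed intensity and arrays were not scaled to each other, per the file headers. Other deposited values are flags for spots well above background, saturated and uneven spots. The authors' deposited log2 values served as an alternative. Their background treatment is stated in no label or header read here. Their medians of 6.41 at 6 h and 6.73 at 24 h show separate scaling of the times.

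The main value was log2 of the processed intensity minus the array's 75th percentile. Probes with an uneven spot (157) were left out, and 32343 probes that were well above background on 4 or more of 16 arrays were kept. Of several probes the one with the highest mean stood for its gene (21631 genes, 7336 with several probes). No spot was saturated. RefSeq names were matched by accession (25097 probes), symbol (6333) or synonym (1640), and 8104 probes kept the name in the file.

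Group means were fitted over all 16 arrays with limma 3.58.1 in R 4.3.3 (eBayes with trend). All adjusted p-values are two-sided, from limma, by Benjamini-Hochberg over all genes (or probes) tested, called under 0.05. The median SE was 0.13, and 4 arrays per group limit the precision. Permutation tests were exact and two-sided. The alternatives changed background, scaling, filter, probe, block, weights, sex covariate and prior, and left out each array in turn. Members and lists were chosen with earlier results of these data known, and calls on them are no independent support. Genes named besides members are up to 4 per list with the smallest p, called list genes, the 5 most like Hspa1a, marker genes that moved, and called genes with a 3-unit run, a group chosen after its values were seen.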

Additional observations from a re-analysis of the deposited data

Results flagged for a closer look

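In 36 groups of 4 lungs (9 genes in 4 groups), a lung that stood apart from the others of its group was looked for, by its gap to the nearest value over the whole range of the group. A gap above Dixon's 95% critical value was found in 2 groups, and chance alone flags about 1 in 20.

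Hsp90aa1 read 6.04 in air replicate 2 of 6 h, and the other 3 air lungs read 6.45 to 6.49. The gap was 0.916 of the range. Hspa8 read 5.74 in air replicate 3 of 6 h, and the others read 5.93 to 5.97, with a gap of 0.845 of the range.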

How the results depend on the processing

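The 4 member calls at 6 h were recomputed under the alternatives and without each array. Of 119 such values 79 were still called and 0 changed sign. Of 670 values of members not called, 33 had the other sign. The members called at 6 h numbered 4, against 2 with quantile normalization, with the median in place of the 75th percentile, with the authors' deposited values and with no filter, and 0 with only the arrays of the time point. Leaving out 1 array gave 1 to 5. At 24 h the count of 0 became 1 with only the arrays of the time point, and for the difference of effects it became 1 with normexp. The range without 1 array was 0 to 0 for both.

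Deviations of same-numbered ozone and air lungs correlated at 0.05 to 0.14 at 6 h and at -0.01 to 0.20 at 24 h. Differently numbered ozone and air lungs of the same slide correlated at -0.05 to 0.15 at 6 h and at 0.08 to 0.43 at 24 h. Such values cannot show whether replicate numbers pair the lungs, since lungs of a slide also share a batch. With the replicate block 1 member was called at 6 h, and the genes called numbered 247 in place of 970 at 6 h, 261 in place of 434 at 24 h and 1 in place of 14 for the difference.

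Over all genes, calls at 6 h were 970, against 100 with the time point alone, 1813 with array weights, 558 with Xist as a covariate, 546 without trend and 196 to 1690 without 1 array. At 24 h they were 434, against 652 with normexp, 256 with the median, 1738 with array weights, 245 with Xist and 263 at the lowest without 1 array. For the difference they were 14, against 550 with normexp, 38 with quantile normalization, 1 with the median, 6 with slide as a block, 441 with array weights, 4 without trend and 0 to 263 without 1 array. The median of all genes at 6 h was 0.07, and -0.09 with the median in place of the 75th percentile. The causes were not tested.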
